A study of Mus musculus with 6 samples.

Results

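The ATP-binding cassette (ABC) transporter genes were examined for FXR binding in mouse liver, leaving out the 8 hepatic exporters of BAs, conjugates, drugs, phospholipids and sterols (Abcb11, Abcb4, Abcc2, Abcc3, Abcc4, Abcg2, Abcg5 and Abcg8). A peak was a member when the gene name given to it by the authors was Abc followed by a letter from a to g and a number, and was not among those 8. The rule selected 94 of 32535 FXR peaks, made up of 58 of the 20040 peaks in the WT list and 36 of the 12495 peaks in the LKO list. The name attached to a peak is that of the nearest transcription start site (TSS), so a member peak is a binding site near an ABC gene and need not act on it. In the reference annotation (RefSeq, GRCm38.p6) 42 genes satisfied the rule, and 22 of them had at least 1 peak, 21 in the WT list and 18 in the LKO list. These are 52.4%, 50% and 42.9% of the family, against 36.8%, 34.4% and 26.3% of all 21900 protein-coding genes of the annotation.

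The peaks came from ChIP-seq with the FXR antibody E4B8P on livers of male C57BL/6 mice. Bcl6fl/fl mice, which carry loxP-flanked Bcl6 alleles without Cre, are called WT, and Bcl6LKO mice, in which the same alleles are deleted by an albumin-Cre transgene, are called LKO. Albumin-Cre acts in hepatocytes, and whether other liver cells of LKO mice keep Bcl6 was not examined here. Both groups carry the floxed alleles. Each genotype had 2 ChIP libraries and 1 input library, and the lists were called on pooled ChIP libraries. Ages and the number of animals behind a library were not given in the sources used here, and the spread between 2 libraries may be technical. The deletion of Bcl6 cannot be checked in lists of FXR peaks. As a check of the tissue, all 8 of a list of hepatocyte genes (Alb, Ttr, Apoa1, Apob, Serpina1a, Hnf4a, Cps1 and Nr0b2) had a peak in both lists. Of all protein-coding genes, 34.4% had a WT peak and 26.3% an LKO peak, and Nr0b2 is itself activated by FXR. Depth was uneven, with 19022618 tags in WT replicate 1, 2883717 in WT replicate 2, and 21287263 and 22637613 in the LKO replicates, so WT replicate 2 carries the largest counting error. The comparison asks whether FXR occupancy near these genes differs when hepatocytes lack BCL6, a transcriptional repressor.

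ABC proteins use ATP to move lipids, drugs, metabolites and peptides across membranes, and they are sorted by sequence into subfamilies A to G. Subfamily A holds lipid transporters, B holds drug exporters and mitochondrial transporters, C holds conjugate exporters and channel regulators, and D holds peroxisomal importers of fatty acids. Members of E and F do not transport, and act in ribosome recycling and translation, while G holds sterol exporters. FXR, the nuclear receptor for BAs, binds DNA with RXR, most strongly at an inverted repeat of the hexamer AGGTCA with a 1-base spacer (IR1), and it is best known in the ABC family for driving the canalicular BA exporter Abcb11.

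IR1 was searched as AGGTCA, any 1 base and TGACCT, on both strands within 100 bp of each peak centre, with at most 2 mismatches in the 12 scored bases. The sites below are the members' best matches, shown because they are the sequences in these peaks nearest to the FXR element. They are on the plus strand of GRCm38.p6 (mm10), with the 13 bases of the repeat in capitals and 8 bases of flank on each side, and come from chr17:31038570-31038598, chr16:20412155-20412183, chr3:122074612-122074640, chr16:20418252-20418280, chr4:53094536-53094564, chr11:110029326-110029354, chr4:53155729-53155757 and chr11:110038052-110038080.
Abcg1, 19124 bp upstream, both lists, 0 mismatches: agagtcacAGGTCAATGACCTcagtgtgg
Abcc5, intron 2, LKO list only, 1 mismatch: acagctagAGGTCAAAGACCTgcactcac
Abca4, intron 6, both lists, 2 mismatches: gctccctgGGGTCACTGGCCTgcagtttg
Abcc5, intron 2, both lists, 2 mismatches: gcatacccAGGGCAATAACCTcaacaaac
Abca1, intron 8, both lists, 2 mismatches: ctatccaaAGGTCACTCACCCtccctaac
Abca8b, 33559 bp upstream, both lists, 2 mismatches: gcatccacACTTCAGTGACCTctttgagg
Abca1, intron 1, both lists, 2 mismatches: acgcgcaaGGGTCAAAGACCTctcttttg
Abca8b, 42225 bp upstream, WT list only, 2 mismatches: cagaatgtAGGTCAGTTCCCTggtaaaca

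The perfect repeat near Abcg1 lay 14 bp from the centre of its WT peak. A perfect repeat was found in 46 peaks of the whole WT list and 36 of the whole LKO list, so Abcg1 held the only one among the members. By the rule above, 7 of 58 WT member peaks held IR1 (12.1%, 95% Wilson interval 5.97 to 22.9%), against 11.8% of all WT peaks. In the LKO list 7 of 36 did (19.4%, 9.75 to 35.0%), against 16.2% of all LKO peaks. These intervals cover counting error over peaks and include the share of the whole list. With at most 1 mismatch, the repeat was found in 1 WT member, against 2.46% of all WT peaks, and in 2 LKO members, against 3.55% of all LKO peaks. Subfamilies B, D and E had no match with up to 2 mismatches, in 20 WT peaks and 9 LKO peaks, and all matches lay near Abca1, Abca4, Abca8b, Abcc5 and Abcg1. No match says only that these letters are not in the window.

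The strongest member peak and the next strongest are shown whole, because one holds IR1 close to its centre and the other has no match within the limit. Both are on the plus strand, and the capitals mark the IR1 match.
Abca4, chr3:122074519-122074729, intron 6: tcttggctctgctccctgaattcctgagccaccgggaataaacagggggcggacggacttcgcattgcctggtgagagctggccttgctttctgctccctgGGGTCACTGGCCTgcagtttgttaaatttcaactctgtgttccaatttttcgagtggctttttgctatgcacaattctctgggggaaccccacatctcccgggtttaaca
Abca5, chr11:110367772-110367982, intergenic: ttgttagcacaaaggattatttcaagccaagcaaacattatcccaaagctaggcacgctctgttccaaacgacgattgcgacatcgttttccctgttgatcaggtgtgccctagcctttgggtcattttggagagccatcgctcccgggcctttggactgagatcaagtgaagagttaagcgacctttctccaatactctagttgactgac

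Subfamilies D and A had the most peaks per gene, although not the highest share of genes with a peak. Over the whole family there were 1.38 WT and 0.857 LKO peaks per gene. Subfamily A had 30 WT and 19 LKO peaks near 9 of its 16 genes, or 1.88 and 1.19 peaks per gene. Subfamily D had 13 WT and 5 LKO peaks near 2 of its 4 genes, 3.25 and 1.25 per gene, with 10 and 4 of them near Abcd3. Subfamily B had 6 WT and 3 LKO peaks near 4 of 8 genes, subfamily C had 6 and 6 near 5 of 7, subfamily G had 2 and 2 near 1 of 3 (Abcg1), and subfamily E had 1 in each list at its only gene, Abce1. The 3 genes of subfamily F (Abcf1, Abcf2 and Abcf3), which act in translation, had none. The peaks per gene of A and D rest on few genes, since Abcd3 (10 WT peaks), Abca1 (9) and Abca8b (6) together held 25 of the 58 WT peaks.

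**Figure D1:**
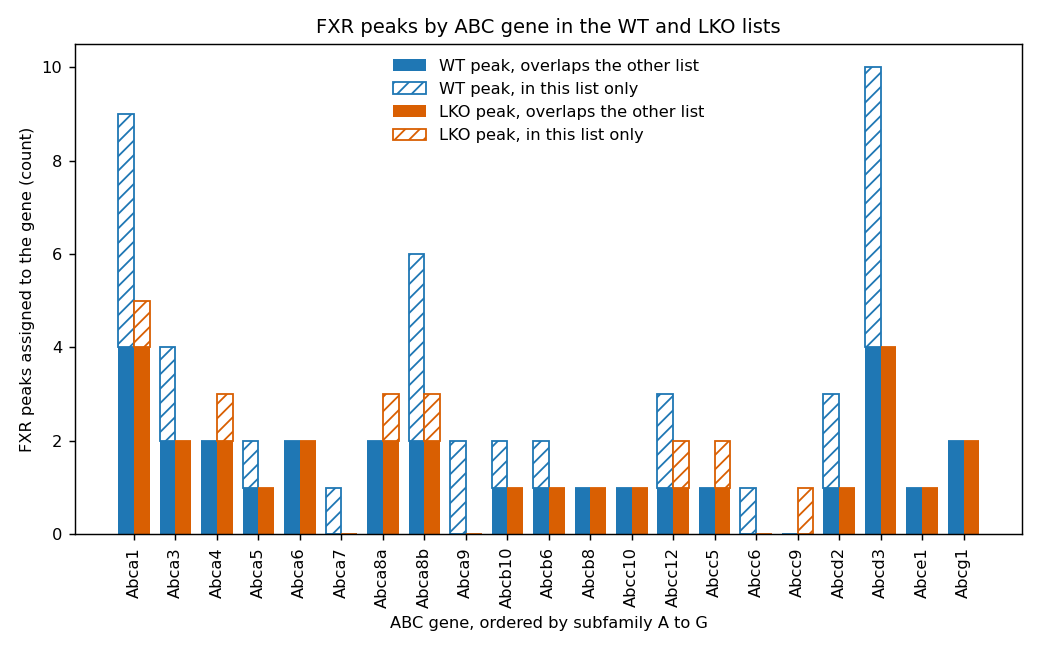
Number of FXR peaks (y axis) assigned to each ABC gene reported here with a peak (x axis, ordered by subfamily) in the WT list (blue) and the LKO list (orange); filled bars are peaks that overlap a peak of the other list and hatched bars are peaks found in that list only. Abcd3 (10 WT and 4 LKO peaks) and Abca1 (9 and 5) had the most, and Abcc9 is the only gene with an LKO peak and no WT peak.

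Among genes with a peak, a member had a mean of 2.76 WT peaks and 2 LKO peaks, against 2.22 and 1.82 over all genes with a peak. Of all genes with a WT peak, 1.93% had 9 or more, and Abca1 and Abcd3 were among them. Genes without a peak in either list included both mouse genes of the drug exporter P-glycoprotein, Abcb1a and Abcb1b, and Abcc1, which exports glutathione conjugates. Abca2, Abca12 and Abca13, Abca14 to Abca17, Abcb5 and Abcb9, Abcc8, Abcd4, and Abcg3 and Abcg4 also had none assigned. The promoter peak of Abca3, however, lay within Abca17. A gene without a listed peak may still be bound below the authors' threshold or from a site nearer to another TSS.

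By the roles used for grouping, 10 of 14 lipid and sterol transporters had a peak in the WT list and 8 in the LKO list, to be read against 34.4% and 26.3% of all protein-coding genes. Of these genes, 5 in the WT list and 4 in the LKO list are neighbouring paralogs on chromosome 11 (Abca5 to Abca9, described below). Such neighbours are not independent genes. The other groups are smaller. The mitochondrial transporters Abcb6, Abcb8 and Abcb10 had a peak in both lists. Of the 6 drug and organic anion exporters, Abcc5, Abcc10 and Abcc12 had peaks in both lists. The peroxisomal transporters Abcd2 and Abcd3 also had peaks in both, and neither of the lysosomal genes Abcb9 and Abcd4 had any. Among 10 partners of Abca1 and Abcg1 in sterol efflux, 8 had peaks in both lists (Apoa1, Apoe, Lcat, Scarb1, Nr1h3, Mylip, Npc1 and Srebf2), with 40 WT and 25 LKO peaks, and Nr1h2 and Npc2 had none. The ABC family genes with other symbols, Tap1, Tap2 and Cftr, had no peak.

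The members were spread over introns and intergenic sequence like the rest of the lists. Introns held 31 WT members (53.4%) against 46.5% of all WT peaks, and 17 LKO members (47.2%) against 47.4%. Intergenic sequence held 17 WT members (29.3%, all WT peaks 35.3%) and 11 LKO members (30.6%, all LKO peaks 34.3%). Promoters held 6 WT members (10.3%, 4.83 to 20.8%) against 11.4% and 4 LKO members (11.1%, 4.41 to 25.3%) against 11.3%. The peak centre was within 1 kb of the TSS for 12 WT members (20.7%, all WT peaks 16.7%) and 7 LKO members (19.4%, all LKO peaks 16.6%).

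Position differed among subfamilies in the WT list. All 6 peaks of subfamily B lay within 9287 bp of the TSS, at a median of 853.5 bp, and 5 of them were in introns. The 13 peaks of subfamily D lay at a median of 41150 bp, none within 1 kb, and 9 of them were intergenic (69.2%, 42.4 to 87.3%). Of the 30 peaks of subfamily A, 20 were in introns (66.7%, 48.8 to 80.8%) and 3 were intergenic (10.0%, 3.46 to 25.6%). The 13 peaks of D came from 2 genes and the 30 of A from 9, so peaks that share a gene weigh several times in these intervals.

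Several peaks lay inside a gene other than the one assigned, and 30 WT and 18 LKO member peaks were centred within the body of the assigned gene. The Abcd2 peaks at chr15:91276065-91276275 and chr15:91283065-91283275 were in an exon and an intron of Slc2a13, a myo-inositol transporter. The Abca3 promoter peak at chr17:24351616-24351826 was within Abca17, which spans chr17:24264257-24352058. The Abca8a peak at chr11:110101517-110101727 was in the 3′ UTR of Abca9. The Abca8b peaks 33559 and 42225 bp upstream were in introns 36 and 30 of Abca8a, and the Abce1 peak was annotated to the promoter of its neighbour Anapc10, a subunit of the anaphase-promoting complex.

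Strength was ranked within each list by the mean of the 2 log2 ChIP values, from 0 for the weakest to 100 for the strongest peak. The WT members ran from percentile 0.736 to 98.9 with a median of 46.0, and the LKO members from 1.62 to 98.9 with a median of 57.7, where the median of a list is 50 by construction. The exporters left out had medians of 60.0 over 27 WT peaks and 57.5 over 18 LKO peaks. Only 4 WT members and 1 LKO member were in the strongest decile of their list, and all 5 were in subfamily A, at Abca4, Abca5 and Abca8a. An estimated 19.0 to 453 pooled tags lay behind a WT member (median 49.1), and 39.0 to 589 behind an LKO member (median 81.5).

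The medians of the subfamilies were close together in WT, at 46.1 for A, 48.2 for B, 52 for C, 44.4 for D and 56.6 for G, and the single E peak was at 36.9. In LKO they were 50.2 for A, 71.9 for B, 64.5 for C, 66.2 for D and 48.4 for G, and the E peak was at 8.63. The ranges of the subfamilies with more than 1 peak overlapped in both lists, and no subfamily stood apart from the others.

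**Figure D2:**
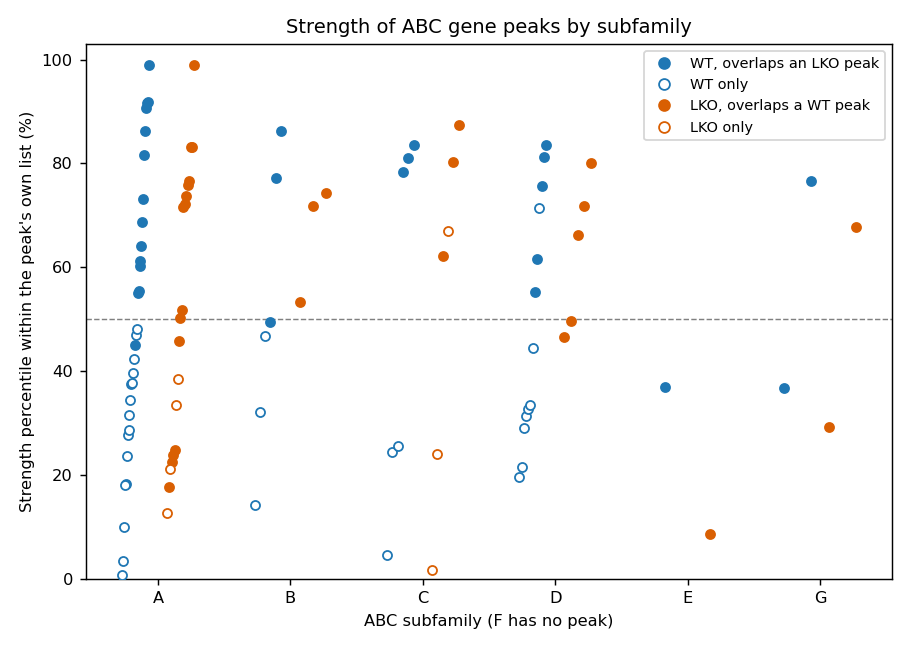
Strength percentile of each member peak within its own list (y axis, %) by ABC subfamily (x axis) for WT (blue) and LKO (orange); filled points overlap a peak of the other list, open points do not, and the dashed line is the median of a list. Filled points have the higher median in both lists (75.6 against 31.3 in WT, 67.7 against 24.0 in LKO), although 5 WT and 9 LKO filled points lie below the line and 1 open point of each list lies above it, and the subfamilies cover overlapping ranges.

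The lists shared member peaks at the rate of all peaks. Of 58 WT members, 29 overlapped an LKO peak by at least 1 bp (50%, 37.5 to 62.5%), against 49.5% of all WT peaks. Of 36 LKO members, 29 overlapped a WT peak (80.6%, 65.0 to 90.2%), against 79.4% of all LKO peaks. All 29 partners were assigned to the same gene. The WT peaks of A, B and C were shared in 15 of 30, 3 of 6 and 3 of 6 cases, those of D in 5 of 13, and the E peak and both G peaks were shared. The LKO-only peaks were 4 of A and 3 of C, while B, D, E and G had no LKO-only peak.

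Sharing followed strength. Of the 25 WT members at or above the median of their list 24 were shared, against 75.5% of all such WT peaks, and of the 33 below it 5 were shared, against 23.5%. In LKO the shared members were 20 of 21 at or above the median (all such peaks 92.3%) and 9 of 15 below it (66.4%). Shared WT members had a median percentile of 75.6 and WT-only members one of 31.3, and in LKO the values were 67.7 and 24.0. The WT members without an LKO partner thus ranked below the median of their own list, and ranks are relative to that list. The exception was a WT-only peak of Abcd3 described below.

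For single peaks, the relative level is the log2 tag value of a library minus the median of the 9918 shared peaks in that library. The deposited tables were normalized separately, so differences between genotypes are descriptions without a test, and a ± gives the SD of n = 2 libraries. In whole liver, a lower level in fewer cells and a lower level per cell cannot be told apart. At the 29 shared member peaks the difference of LKO and WT had a median of -0.035, ranging from -0.72 to 1.07, and the median over all shared pairs was 0.026. Both LKO libraries lay above both WT libraries at 8 of the 29, against 29.8% of all shared pairs, and below them at 4, against 25.2%. At the other 17 the libraries of the genotypes overlapped. By size, 9 differences exceeded the pooled SD upwards (all pairs 33.7%), 7 downwards (29.4%) and 13 were within it. The split depended on the scale. Without centring, every difference was shifted by a constant -0.329, and the libraries were then separate upwards at 4 members and downwards at 7 (all pairs 12.9% and 37.3%). Centring each library on its own list shifted all differences by -0.476 and gave 4 and 18 (all pairs 9.43% and 58.3%). On all of these scales 7 of the 13 positive differences stayed above 0, and these were at Abcb8, Abca1 (2 peaks), Abca3, Abca4 (intron 17), Abcc5 and Abcd3. Differences below are relative to the median shared peak.

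Input values were set beside these differences. Deposited log2 input values of the members fell below 0.2 or above 1, and they are compared only within a table. Above 1 they lay in narrow steps, from 1.01 to 1.23, from 1.77 to 1.81 and at 2.65 in WT. In LKO the steps were from 1.605 to 1.69, from 2.45 to 2.49 and at 3.04. The input libraries held 6964271 (WT) and 6935001 (LKO) tags. How many of those tags lie behind a step is not known, so a value above 1 is not read as input enrichment. The LKO input was above 1 at 5 of the 8 members with both LKO libraries higher (all such pairs 34.6%), at 1 of the 4 with both lower (27.5%) and at 5 of the 17 that overlapped (30.9%). The 5 were Abca4 (intron 6, 3.04), Abcc5 (8157 bp, 2.49), Abcb8 (2.46), Abca1 (4166 bp, 1.67) and Abca3 (the promoter, 1.63), and at the other 3 it was between -0.14 and 0.054. In the WT table the input was above 1 at 4, 0 and 10 of the same groups (all pairs 30.3%, 46.8% and 41.4%). At the 5 named peaks the WT input was 1.23, 1.81, 1.05, -0.40 and -0.44. At the other 3 it was -0.38 (Abca4, intron 17), -0.54 (Abca1, 36130 bp upstream) and 1.79 (Abcd3, 7333 bp). For that Abcd3 peak the LKO input was -0.0039, so high input was in the WT table while LKO was the higher genotype. The part of input in the differences was not tested.

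**Figure D3:**
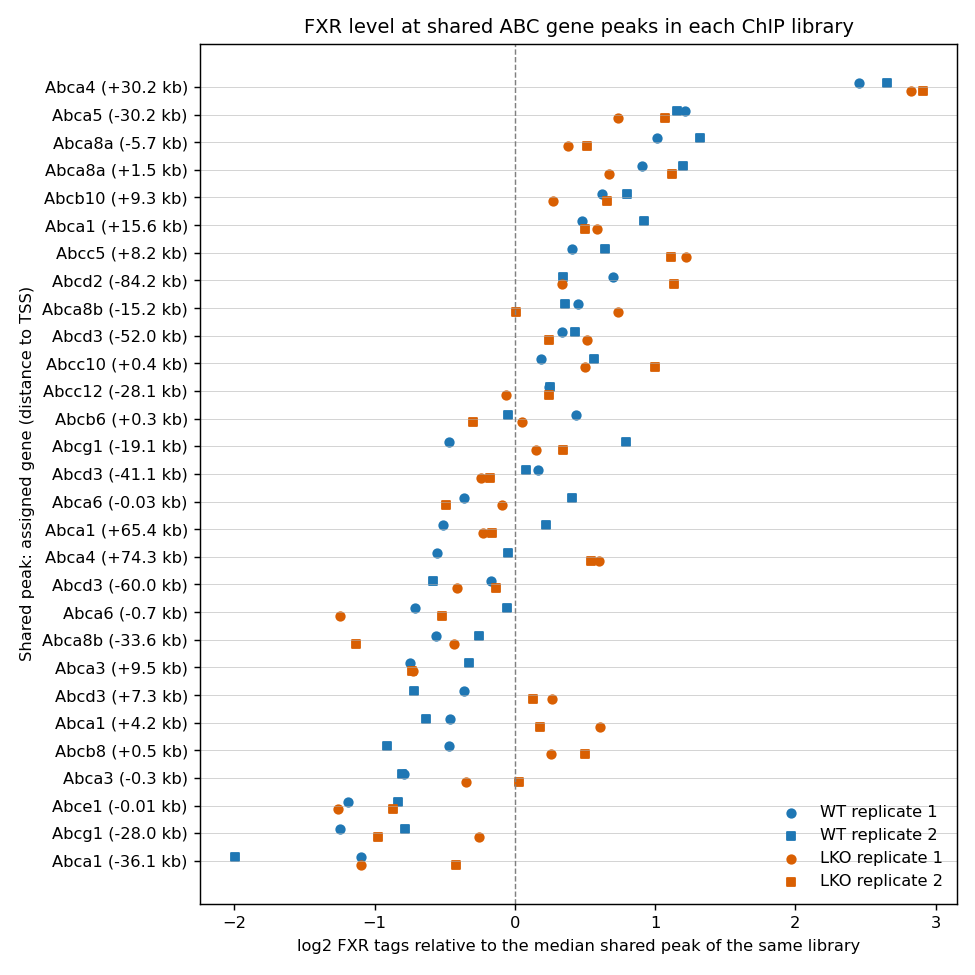
Relative level (x axis, log2 tags minus the median shared peak of the same library) of the 29 shared member peaks (y axis, assigned gene and distance to its TSS) in WT replicate 1 (blue circles), WT replicate 2 (blue squares), LKO replicate 1 (orange circles) and LKO replicate 2 (orange squares). The intron 6 peak of Abca4 is far above the rest in all 4 libraries, between 2.45 and 2.91, and the colours overlap at 17 of the 29 peaks.

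Abca4, the retinoid-lipid flippase of photoreceptors, had the strongest member peak in both lists, in intron 6 at chr3:122074519-122074729, percentile 98.9 in each. Its relative level was 2.45 and 2.65 in the WT libraries and 2.83 and 2.91 in the LKO libraries. Both LKO libraries were above both WT libraries, by a mean of 0.32 with a pooled SD of 0.11, a direction that turned without centring and when each library was centred on its own list. The input value of this peak in the LKO table, 3.04 on the deposited log2 scale, was among the highest 5.00% of that list. The number of input tags behind it is not known. A further peak in intron 17 of Abca4, at chr3:122118701-122118911, read -0.55 and -0.046 in WT and 0.60 and 0.54 in LKO. That difference, 0.87 with a pooled SD of 0.25, was among the 3 most positive. Abca4 also had a weak LKO-only peak in intron 19, at percentile 12.6.

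Abca1, which loads cholesterol and phospholipid onto apolipoprotein A-I to form HDL, had 9 WT and 5 LKO peaks, 4 of them shared. The strongest, in intron 1 at chr4:53144155-53144365, read 0.48 and 0.92 in WT and 0.59 and 0.50 in LKO, and the genotypes overlapped. The intron 1 peak 4166 bp from the TSS, at chr4:53155624-53155834, which holds the IR1 sequence acgcgcaaGGGTCAAAGACCTctcttttg, read -0.46 and -0.63 in WT and 0.61 and 0.18 in LKO. Both LKO libraries were above both WT libraries there, by 0.94 with a pooled SD of 0.23, the second most positive difference.

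The intron 8 peak of Abca1 at chr4:53094423-53094633, also with IR1, read -0.51 and 0.22 in WT and -0.23 and -0.16 in LKO, and did not separate the genotypes. The peak 36130 bp upstream, at chr4:53195920-53196130, read -1.10 and -2.00 in WT and -1.09 and -0.42 in LKO. LKO was higher there by 0.79, but the pooled SD was 0.56, and LKO replicate 1 and WT replicate 1 differed by less than 0.01. Abca1 thus had 2 shared peaks at which LKO was higher and 2 at which the libraries overlapped.

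The 5 WT-only peaks of Abca1 were weak. The strongest of them, in intron 5 at chr4:53120409-53120619, was at percentile 47.0 with levels of -0.85 and -0.66, and a second intron 5 peak at chr4:53115109-53115319 was at 42.4 with levels of -0.97 and -0.77. The intron 2 peak at chr4:53139576-53139786 was at 34.5 with levels of -0.96 and -1.18. The other intron 2 peak, at chr4:53138127-53138337, was the lowest of all WT members, at 0.736 with levels of -2.31 and -1.79. The promoter peak at chr4:53159894-53160104, centred 104 bp before the TSS, was at percentile 9.99, with levels of -1.82 and -1.74. The LKO-only peak, in intron 5 at chr4:53124447-53124651, was at percentile 21.2, with levels of -0.58 and -1.06, and its centre was 4035 bp from that of the nearest WT peak.

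**Figure D4:**
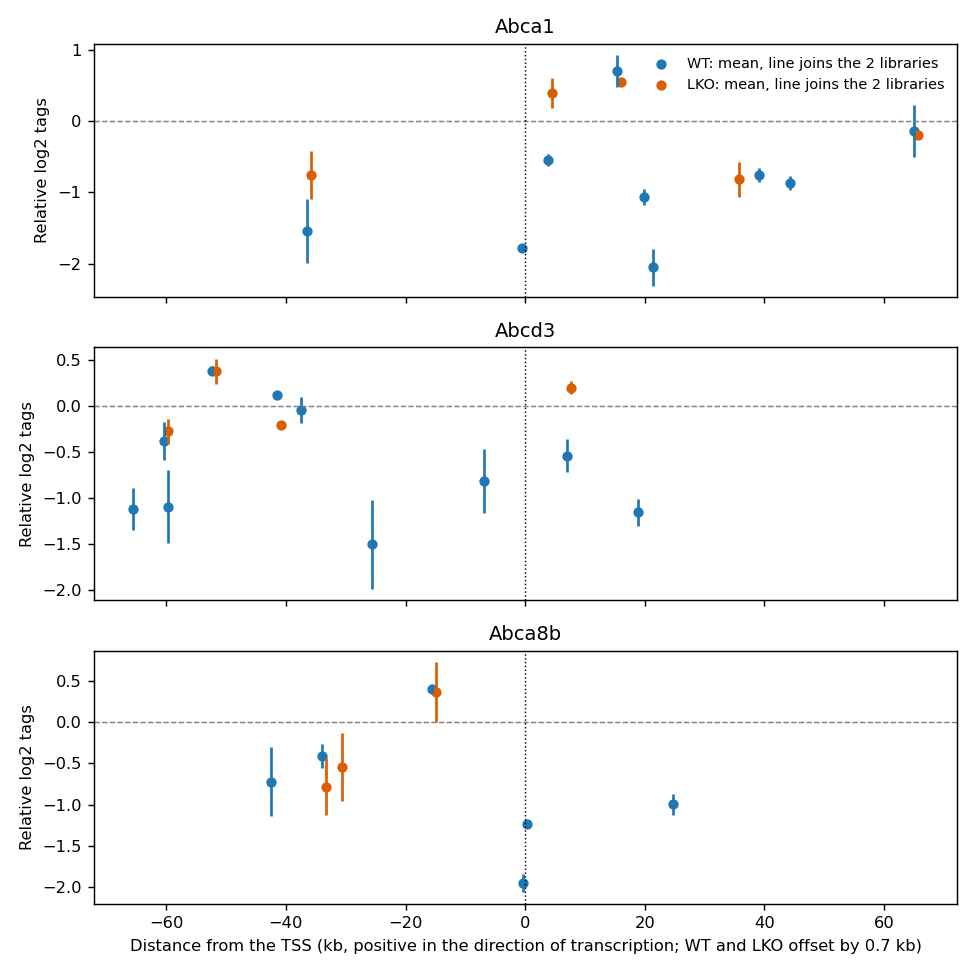
Relative level (y axis, log2 tags minus the median shared peak of the same library) against distance from the TSS (x axis, kb) for the FXR peaks of Abca1, Abcd3 and Abca8b in WT (blue) and LKO (orange); points are means and lines join the 2 libraries. Blue points without an orange neighbour are WT-only peaks, mostly below 0, and the exception near 0 in the Abcd3 panel is the peak 37211 bp upstream.

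Abcg1, which exports cholesterol to HDL, had 2 peaks, both upstream, intergenic and shared. The peak 19124 bp upstream, at chr17:31038465-31038675, which holds the perfect IR1 agagtcacAGGTCAATGACCTcagtgtgg, read -0.47 and 0.79 in WT and 0.15 and 0.35 in LKO. The WT libraries were the lowest and the highest of the 4, with a mean of 0.16 ± 0.89 (SD, n = 2) against 0.25 ± 0.14 in LKO, so no difference could be read. The peak 28016 bp upstream, at chr17:31029573-31029783, read -1.24 and -0.79 in WT and -0.26 and -0.98 in LKO, and the genotypes overlapped there as well. This single peak with the perfect repeat was at percentile 76.5 in WT and 67.7 in LKO. Members with IR1 at up to 2 mismatches had a median percentile of 68.7 in WT and 67.67 in LKO. Without IR1 the medians of the members were 39.65 and 51.76. Over the whole lists the medians were 67.27 with and 48.05 without IR1 in WT, and 67.74 and 46.96 in LKO.

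Abca3, which loads surfactant lipids into lamellar bodies of the lung, had 4 WT and 2 LKO peaks. Its promoter peak at chr17:24351616-24351826 read -0.79 and -0.81 in WT and -0.35 and 0.03 in LKO. LKO was above WT in all libraries there, by 0.64 with a pooled SD of 0.19. The intron 2 peak at chr17:24361369-24361579 read -0.75 and -0.33 in WT and -0.72 and -0.73 in LKO, and the genotypes overlapped. The only peak assigned to Abca7, a phospholipid transporter linked to phagocytosis, was WT-only, at percentile 23.7.

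Abca5, Abca6, Abca8a, Abca8b and Abca9 are neighbouring paralogs on chromosome 11, and their grouping here was chosen after the values were seen. They had 14 WT and 9 LKO peaks, of which 7 were shared. At all 7 the mean relative level was lower in LKO, against 48.0% of all shared pairs, with a median difference of -0.32. Both LKO libraries were below both WT libraries at 2 of the 7 only, and leaving out any single library left 6 of the 7 differences below 0. Reads were kept only where they aligned uniquely, and the share of each paralog that is mappable was not examined.

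The largest of these differences, and the most negative of any member, was at the Abca8a peak 5685 bp upstream, chr11:110101517-110101727, which lies in the 3′ UTR of Abca9. It read 1.01 and 1.32 in WT and 0.38 and 0.51 in LKO. Both LKO libraries were below both WT libraries, a difference of -0.72 with a pooled SD of 0.17. The strongest peak of the cluster, 30161 bp upstream of Abca5 at chr11:110367772-110367982, read 1.22 and 1.16 in WT and 0.74 and 1.07 in LKO. There too LKO was lower in all libraries, with a difference of -0.28 and a pooled SD of 0.17.

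The other 5 overlapped between the genotypes. The Abca8a intron 1 peak at chr11:110094317-110094527 read 0.91 and 1.20 in WT and 0.68 and 1.12 in LKO. The Abca6 peak 697 bp upstream, chr11:110252368-110252578, read -0.71 and -0.053 in WT and -1.25 and -0.52 in LKO, with a difference of -0.50 and a pooled SD of 0.49. The promoter peak of Abca6 nearer the TSS, chr11:110251703-110251913, read -0.36 and 0.41 in WT and -0.094 and -0.49 in LKO. These wide spreads, in both genotypes, are of the size of the differences.

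Abca8b had 6 WT and 3 LKO peaks. The shared peak 33559 bp upstream, chr11:110029270-110029480, which holds gcatccacACTTCAGTGACCTctttgagg, read -0.56 and -0.26 in WT and -0.43 and -1.13 in LKO, a difference of -0.37 with a pooled SD of 0.38. The shared peak 15217 bp upstream, chr11:110010928-110011138, read 0.45 and 0.36 in WT and 0.73 and 0.01 in LKO. Neither separated the genotypes.

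The peaks of this cluster that occurred in 1 list were weak or uneven between libraries. The second strongest WT-only member was the Abca8b peak 42225 bp upstream, chr11:110037936-110038146, with IR1 at 2 mismatches, at percentile 48.2 and levels of -0.30 and -1.14. The LKO-only peaks of Abca8a at chr11:110097601-110097805 and of Abca8b at chr11:110026724-110026928 were at percentiles 38.6 and 33.4. Their levels were -0.12 and -0.76 for Abca8a and -0.12 and -0.96 for Abca8b, so in both LKO replicate 2 was the lower library. Abca9 had 2 WT-only peaks and no LKO peak, at percentiles 39.6 and 37.8.

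**Figure D5:**
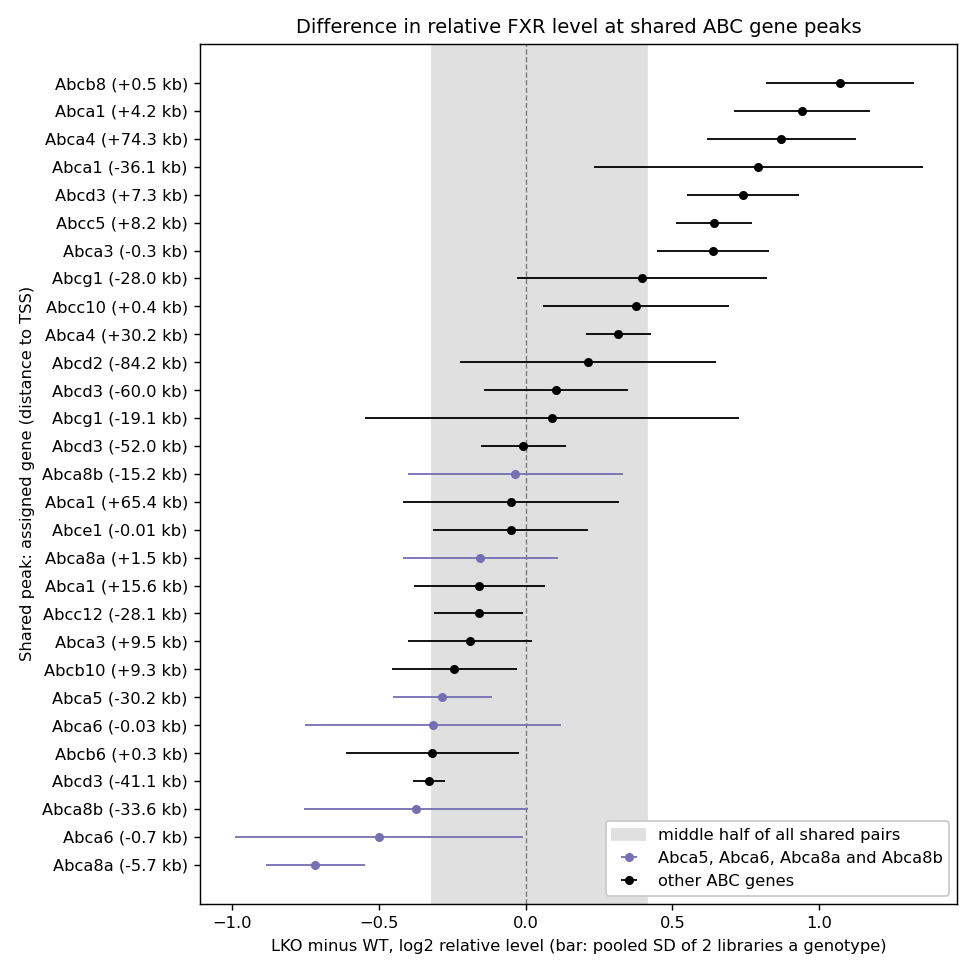
Difference of LKO and WT in relative level (x axis, log2; bars are the pooled SD of 2 libraries per genotype) at the 29 shared member peaks (y axis, assigned gene and distance to its TSS), with Abca5, Abca6, Abca8a and Abca8b in purple and the other genes in black. The differences run from -0.72 to 1.07 around the grey band that holds the central 50% of all shared pairs, and the 7 purple points are all below 0.

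The peaks of the mitochondrial subfamily B transporters lay within 9331 bp of the TSS in both lists, and those of Abcb10 were the farthest. Abcb8, a transporter of the inner membrane, had the most positive difference of any member, at a peak 454 bp from the TSS, chr5:24394505-24394715. It read -0.47 and -0.91 in WT and 0.26 and 0.50 in LKO, or -0.69 ± 0.31 against 0.38 ± 0.17 (SD, n = 2), a difference of 1.07 with a pooled SD of 0.25. Both LKO libraries were above both WT libraries, and the peak stood at percentile 49.6 of the WT list and 71.9 of the LKO list.

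Abcb10, which serves haem synthesis in erythroid cells, had the strongest peak of subfamily B, in intron 1 at chr8:123973730-123973940, percentile 86.3 in WT. It read 0.62 and 0.80 in WT and 0.28 and 0.66 in LKO, and the genotypes overlapped. Abcb6, a porphyrin transporter, had a peak 262 bp from its TSS, chr1:75180025-75180235, annotated to the transcription termination site of its neighbour Atg9a, and it read 0.43 and -0.046 in WT and 0.048 and -0.30 in LKO. Its WT input value, 2.65, was the only WT member value among the highest 5.00% of the list, and the number of input tags behind it is not known.

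In subfamily C the strongest WT peak was at Abcc5, an exporter of cyclic nucleotides, in intron 2 at chr16:20418132-20418342. It holds gcatacccAGGGCAATAACCTcaacaaac, and it read 0.41 and 0.65 in WT and 1.22 and 1.12 in LKO. Both LKO libraries were above both WT libraries, by 0.64 with a pooled SD of 0.13. In the same intron, at chr16:20412075-20412279, Abcc5 had the strongest LKO-only member, at percentile 67.0 with levels of 0.50 and -0.043. This peak holds acagctagAGGTCAAAGACCTgcactcac, with 1 mismatch, and its centre was 6060 bp from that of the nearest WT peak.

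Abcc10, an exporter of lipophilic drugs, had a shared intron 1 peak at chr17:46327523-46327733 that read 0.18 and 0.56 in WT and 0.50 and 1.00 in LKO, with overlap. The shared Abcc12 peak, 28093 bp upstream at chr8:86594578-86594788, read 0.24 and 0.25 in WT and -0.064 and 0.24 in LKO, a difference of -0.16 with a pooled SD of 0.15, although LKO replicate 2 was just below the WT libraries. Abcc6, the hepatic transporter whose loss causes pseudoxanthoma elasticum, had 1 peak, WT-only, in intron 19 at chr7:45992496-45992706. It was at percentile 25.6, with levels of -0.99 and -1.67. Abcc9, the sulphonylurea receptor subunit of potassium channels, had the weakest LKO member, in intron 14 at percentile 1.62.

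Abcd3, which imports long-chain acids and BA precursors into peroxisomes, had 10 WT peaks and 4 LKO peaks, and all 4 LKO peaks were shared. The intron 1 peak 7333 bp from the TSS, chr3:121807471-121807681, read -0.36 and -0.72 in WT and 0.27 and 0.13 in LKO, higher in LKO by 0.74 with a pooled SD of 0.19. The peak 41147 bp upstream, chr3:121856344-121856554, read 0.17 and 0.078 in WT and -0.24 and -0.17 in LKO, a difference of -0.33 with a pooled SD of 0.055. The 2 sites of Abcd3 thus differed in opposite directions, each with the libraries of the genotypes apart.

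The remaining shared Abcd3 peaks overlapped. The peak 52027 bp upstream, chr3:121867224-121867434, read 0.34 and 0.43 in WT and 0.51 and 0.24 in LKO, and the peak 60044 bp upstream, chr3:121875241-121875451, read -0.17 and -0.58 in WT and -0.41 and -0.14 in LKO. The WT-only peak 37211 bp upstream, chr3:121852408-121852618, was the strongest WT-only member, at percentile 71.5 with levels of 0.096 and -0.18. It was the only WT member above the median without an LKO partner, and its centre was 3933 bp from that of the nearest LKO peak. Its WT input value was 1.80, with the 95th percentile of input in the WT list at 1.85. That value is in the step from 1.77 to 1.81, which peaks of Abca3 and Abcc5 share, and the tags behind it are not known. The other 5 WT-only peaks of Abcd3 were at percentiles from 19.6 to 44.4.

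Abcd2, the peroxisomal transporter of very-long-chain acids, had the strongest WT peak of subfamily D, 84163 bp upstream within Slc2a13, at percentile 83.6 in WT and 80.0 in LKO. It read 0.70 and 0.35 in WT and 0.34 and 1.13 in LKO, with overlap. Abce1, the ribosome recycling factor, had a weak shared peak at its promoter, chr8:79711643-79711853, which read -1.19 and -0.83 in WT and -1.26 and -0.87 in LKO and did not separate the genotypes.

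A direct repeat of the same hexamer with a 4-base spacer (DR4, searched as AGGTCA, any 4 bases and AGGTCA, on both strands with at most 2 mismatches), the element of the oxysterol receptors LXR, was matched in 6 WT members (10.3%, 4.83 to 20.8%) against 6.20% of all WT peaks, and in 2 LKO members (5.56%) against 6.67%. IR1 and DR4 share the hexamer, so the searches are not independent, but no member peak matched both. Subfamilies A and G, which hold the sterol exporters, had no DR4 match, and the 6 WT matches were at Abcb6, Abcb10, Abcc10, Abcc12 and, in 2 peaks, Abcd3. The nearest to the full repeat was in the shared Abcb10 peak, on the minus strand at chr8:123973845-123973872, with 1 mismatch. The site is shown because it is the best DR4 among the members, with the 16 bases of the repeat in capitals.
Abcb10, intron 1: ttgcagAGGTCAGGAGAGGGCAttggat

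The sequence TTCNNNGAA, the core shared by sites of STAT factors and BCL6, was present in 4 WT members (6.90%) against 6.56% of all WT peaks, and in no LKO member, against 6.39% of all LKO peaks. The 4 were the Abcg1 peak with the perfect IR1, 2 WT-only peaks of Abcc12 and a WT-only peak of Abca8b 600 bp from its TSS. The LKO partner of the Abcg1 peak is centred 29 bp away, so the 2 windows do not hold the same bases. With 0 of 36, a share of up to 9.64% lies within the Wilson interval.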

How the data were processed

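FXR ChIP-seq and input libraries from WT (Bcl6fl/fl) and LKO (Bcl6LKO) male livers were used as deposited, 2 ChIP libraries and 1 input per genotype, and all 6 samples were grouped by their labels. Livers were crosslinked with DSG and formaldehyde. Per the submitters' processing notes and the methods, single-end reads were aligned to mm10 with Bowtie 1.2, unique alignments were kept, and HOMER 4.10 made tag directories limited to 1 tag at a position. As the file headers record, factor-style peak calling by the authors set both ChIP libraries of a genotype, pooled, against input. The authors ran DESeq2 on ChIP against input and deposited the peaks past an adjusted p-value of 0.05 and a log2 fold of 1. Each genotype thus has 1 list without replicate spread, of 211 bp (WT) or 205 bp (LKO) peaks.

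The deposited value of a peak in each library is not whole and can be negative, and was taken as the authors' regularized log2 tags, fitted within a table. This transform draws low values together. As a signal of the pooled tags, scaled to 10000000, the deposited Peak Score was used to estimate tags per peak and as an alternative strength. The deposited fold change and p-value columns hold the authors' comparison of ChIP with input and were not used. Gene names, annotation classes and TSS distances are the authors'.

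An overlap of 1 bp or more made peaks shared. To give relative levels, each library was centred on its median over the 9918 shared peaks. Strength is the mean of both ChIP log2 values. No test between genotypes was run, because the tables were normalized separately. Peaks are not replicates, and all intervals are 95% Wilson intervals that cover counting error only. Sequence was read from GRCm38.p6, inside whose chromosomes all 32535 peaks lay. The members and gene lists were chosen with earlier results of these data known. Full values were given for the strongest WT peak of each subfamily with its LKO partner, all peaks of Abca1, Abcg1, Abcb1a, Abcb1b and Abcc6, the 3 strongest WT-only and LKO-only members, the 3 most positive and most negative differences, and, added after the values were seen, the other shared peaks. Not every gene of the family is reported here by name, while counts cover all members. Input totals were 6964271 (WT) and 6935001 (LKO) tags. Python 3.11.15, pysam 0.24.0, numpy 2.4.6, scipy 1.17.1, pandas 2.3.3 and matplotlib 3.10.9 were used, and overlap, motif search and intervals were tested on simulated data.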

Additional observations from a re-analysis of the deposited data

How the results depend on the processing

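Across 11 results and 42 alternatives, 28 values stayed within the limit set for them and 14 went beyond it. The limits were the Wilson interval for a share, 1.5 times for a count of peaks, and the SD between libraries for a median. Keeping only peaks at or above the median strength left 25 WT and 21 LKO members, by construction of that limit. The shared share of WT members rose from 50% to 72% when both lists were limited in this way, to 76.5% with lists of the same length, and to 92% above the median of replicate 1, an alternative chosen after seeing the data. Widening the promoter to 5 kb gave 27.6% in WT and 27.8% in LKO, and allowing 1 mismatch in IR1 gave 1.72% and 5.56%. The median LKO strength percentile, 57.7, was 56.7 to 57.1 without either replicate and 55.7 by Peak Score, and the WT median, 46.0, was 42.9 to 47.7 without either replicate. The median difference of LKO and WT, -0.035, was -0.365 with no centring and -0.512 when each library was centred on its own list, constant shifts of all shared pairs by construction, and it ran from -0.0786 to 0.0615 without single libraries. It changed sign to 0.0615 without WT replicate 2, to 0.0364 without LKO replicate 1 and to 0.0382 by Peak Score, each within its SD of 0.201, so its sign is not fixed by these data. No paired analysis was possible because levels were only described and replicate numbers tie no WT library to an LKO library. WT replicate 2 held 2883717 tags, and how its depth bears on which weak peaks were called was not tested.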
